A study of Mus musculus with 8 samples.

Results

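Transcript levels of 10 genes of the smooth muscle contractile apparatus and its cytoskeleton were followed in mesenchymal cells of mouse liver. The genes were Acta2, Actg2, Myh11, Myl9, Tpm1, Tpm2, Lmod1, Cnn1, Tagln and Des, taken as a named list and matched by gene identifier among 30395 identifiers measured, and all 10 were found. The list was read in both populations sequenced, Gli1+ peribiliary mesenchymal cells (hereafter Gli1+ cells) and hepatic stellate cells. There were 4 groups of 2 libraries each, namely Gli1+ cells 5 d after bile duct ligation (BDL), Gli1+ cells of uninjured liver, stellate cells 5 d after BDL and stellate cells of uninjured liver. BDL is a surgical block of bile flow. All groups, stellate cells included, came from mice aged 8 weeks of the genotype Gli1:CreER+/-; Ai9+/- on a mixed background of C57BL/6 and SWR/J. In these mice the CreER recombinase is expressed under control of the Gli1 gene and Ai9 is a Cre-dependent red fluorescent reporter, so the Gli1+ label rests on Gli1 activity at the time of labelling. Sort gates, labelling schedule and the number of animals per library were not stated in the sources used here. Nothing says that the replicates of a group are separate animals, and p-values therefore reflect library-to-library spread that may be technical.

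Smooth muscle cells contract when a thick filament of smooth muscle myosin, switched on by phosphorylation of its regulatory light chain, pulls on thin filaments built from muscle actins and tropomyosin. Calponin and transgelin bind these thin filaments, leiomodin helps actin filaments to form, and desmin is the intermediate filament protein that ties the contractile apparatus together. In liver, desmin is a classical marker of rodent stellate cells, and alpha smooth muscle actin, the product of Acta2, is the usual marker of myofibroblasts, the contractile, matrix-producing cells of injured liver.

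The libraries held 11261775 to 19180370 reads, with 15963 to 22897 genes having at least 1 read. The deposited values are read counts scaled to a total of 1000000 per library (CPM). Gli1 itself had 6.61 and 2.39 CPM in Gli1+ cells after BDL and 14.9 and 7.59 CPM in uninjured Gli1+ cells, and at most 0.0584 CPM in stellate libraries. Lrat, a retinoid enzyme that marks stellate cells, had 1832 to 2784 CPM in stellate libraries and 5.16 to 35.9 CPM in Gli1+ libraries. Markers of other cell types were present in both populations, and their summed levels are plotted by library. The 10 mesothelial genes summed to 5548 to 24349 CPM and the 10 cholangiocyte genes to 3155 to 15270 CPM in Gli1+ libraries, against 6.79 to 35.3 CPM and 3.75 to 756 CPM in stellate libraries; Krt19 belongs to both lists. The 12 macrophage genes, led by Clec4f, summed to 12398 CPM in uninjured stellate replicate 1 and to 65.5 CPM in uninjured stellate replicate 2. The 10 hepatocyte genes, led by Alb, summed to 13478 CPM in Gli1+ BDL replicate 2 and to 91.2 to 2484 CPM in the other libraries. In bulk samples of this kind, fewer cells of a type and less RNA per cell cannot be told apart.

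**Figure D1:**
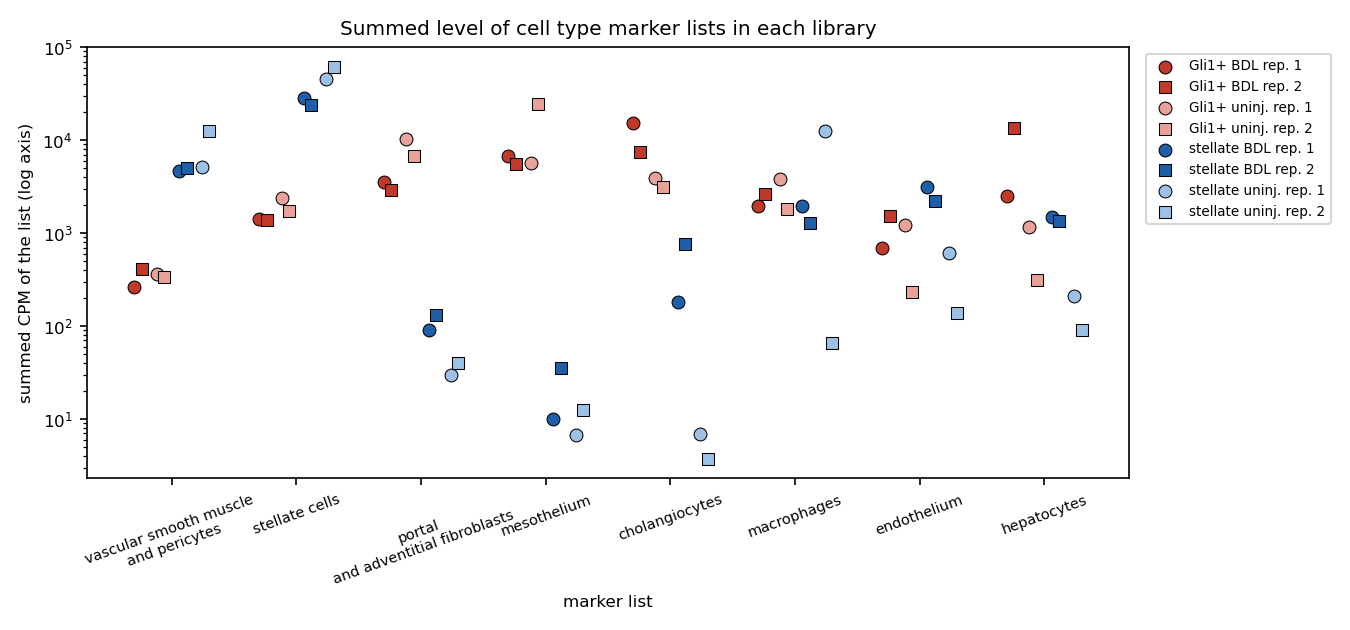
Summed CPM (log axis) of 8 lists of cell type markers in each of the 8 libraries, coloured by group, with circles for replicate 1 and squares for replicate 2. Mesothelial and cholangiocyte sums were higher in the 4 Gli1+ libraries than in the 4 stellate libraries, pericyte sums were lower, and the macrophage sum of uninjured stellate replicate 1 was 12398 CPM.

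The 2 muscle actins of the list were Acta2, which encodes alpha smooth muscle actin (ENSMUSG00000035783.8, chr19:34241090-34255590 on GRCm38, minus strand), and Actg2, which encodes the gamma smooth muscle actin of visceral muscle (ENSMUSG00000059430.14, chr6:83512905-83536265, minus strand). Because actins are alike in protein sequence, the first coding bases of both are shown, 5′ to 3′, from GENCODE vM21 transcripts, to make visible how far their transcripts can be told apart. Capitals mark bases that differ between the genes or that the other lacks.
Acta2: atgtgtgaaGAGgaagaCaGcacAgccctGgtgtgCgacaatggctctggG
Actg2: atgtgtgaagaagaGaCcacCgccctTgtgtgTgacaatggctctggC
In this stretch 6 bases are substituted and 3 bases of Acta2 have no partner. Over the whole coding sequence the 2 genes were 84.2% identical, the longest identical run was 29 bases, and 0% of windows of 50 bases were shared. Acta2 and Actb, the cytoplasmic beta actin, likewise shared 0% of such windows, but their longest identical run was 47 bases, so shorter windows are shared. The effect of shared reads on Acta2 was not tested. Myh11 and Myh9, the heavy chain of a non-muscle myosin, shared 0.442% of windows. How reads that match several genes were counted was not stated in the sources used here.

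Acta2 was abundant in Gli1+ cells and low in uninjured stellate cells. It had 761 and 840 CPM in Gli1+ cells after BDL, 507 and 777 CPM in uninjured Gli1+ cells, 128 and 348 CPM in stellate cells after BDL, and 11.1 and 16.1 CPM in uninjured stellate cells. The Gli1+ groups overlapped, every Gli1+ library lay above every stellate library, and both stellate libraries of BDL lay above both of uninjured liver. Actg2 followed the same order at a lower level. Its level was 59.0 and 84.1 CPM in Gli1+ cells after BDL, 59.8 and 31.6 CPM in uninjured Gli1+ cells, and 1.52 and 6.97 CPM in stellate cells after BDL. No read of Actg2 was counted in either uninjured stellate library, where 3 reads would be 0.183 and 0.156 CPM.

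Myh11 (ENSMUSG00000018830.8, chr16:14194535-14291372, minus strand) encodes the heavy chain of smooth muscle myosin and is widely used to mark mature smooth muscle. It had 64.3 and 67.9 CPM in Gli1+ cells after BDL, 139 and 107 CPM in uninjured Gli1+ cells, 38.3 and 70.6 CPM in stellate cells after BDL, and 4.34 and 19.7 CPM in uninjured stellate cells. Uninjured Gli1+ libraries were the highest and uninjured stellate libraries the lowest, while the BDL libraries of the 2 populations overlapped between them. Myl9 (ENSMUSG00000067818.6, chr2:156775420-156781658, plus strand) encodes a regulatory light chain of smooth muscle and non-muscle myosin. It had 248 and 299 CPM in Gli1+ cells after BDL, 267 and 404 CPM in uninjured Gli1+ cells, 251 and 245 CPM in stellate cells after BDL, and 177 and 684 CPM in uninjured stellate cells. All neighbouring groups in the order of Myl9 overlapped, and its lowest and highest libraries were both of uninjured stellate cells.

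Tpm1 (ENSMUSG00000032366.15, chr9:67022590-67049406, minus strand) and Tpm2 (ENSMUSG00000028464.16, chr4:43514711-43523765, minus strand) encode tropomyosins, which lie along the actin filament and have muscle and non-muscle isoforms that gene-level values do not separate. Tpm1 had 826 and 599 CPM in Gli1+ cells after BDL, 502 and 647 CPM in uninjured Gli1+ cells, 710 and 680 CPM in stellate cells after BDL, and 171 and 481 CPM in uninjured stellate cells. Tpm2 had 270 and 229 CPM in Gli1+ cells after BDL, 213 and 247 CPM in uninjured Gli1+ cells, 141 and 304 CPM in stellate cells after BDL, and 43.1 and 130 CPM in uninjured stellate cells. Both tropomyosins were lowest in the uninjured stellate libraries. The neighbouring groups of Tpm2 otherwise overlapped, while for Tpm1 both uninjured Gli1+ libraries also lay below both stellate BDL libraries. Lmod1 (ENSMUSG00000048096.7, chr1:135324807-135368065, plus strand), the leiomodin of smooth muscle, had 11.3 and 12.8 CPM in Gli1+ cells after BDL, 31.5 and 13.0 CPM in uninjured Gli1+ cells, 1.87 and 0.765 CPM in stellate cells after BDL, and no read in uninjured stellate cells. The 4 groups of Lmod1 did not overlap, although the higher BDL library of Gli1+ cells, at 12.8 CPM, lay close to the lower uninjured one, at 13.0 CPM.

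Cnn1 (ENSMUSG00000001349.4, chr9:22099216-22109630, plus strand) encodes basic calponin, a thin filament protein of differentiated smooth muscle. It had 31.2 and 9.70 CPM in Gli1+ cells after BDL, 73.3 and 46.6 CPM in uninjured Gli1+ cells, 0.292 and 1.19 CPM in stellate cells after BDL, and 0.428 and 0.313 CPM in uninjured stellate cells. Every Gli1+ library was above every stellate library, and the stellate groups overlapped near the level of a few reads. Tagln (ENSMUSG00000032085.4, chr9:45929619-45936058, minus strand) encodes transgelin, also called SM22 alpha. It had 154 and 204 CPM in Gli1+ cells after BDL, 277 and 244 CPM in uninjured Gli1+ cells, 122 and 320 CPM in stellate cells after BDL, and 71.6 and 245 CPM in uninjured stellate cells. Each neighbouring pair of groups of Tagln overlapped. The longest overlap of a Tagln exon on the opposite strand is 108 bases with an exon of Pcsk7 and 645 bases with an exon of Gm48529. With the strand setting of the counting unstated, reads from the shared bases cannot be assigned to 1 of the genes.

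Des (ENSMUSG00000026208.9, chr1:75360329-75368579, plus strand), the intermediate filament gene of the list, was lower in Gli1+ than in stellate libraries. It had 51.3 and 74.7 CPM in Gli1+ cells after BDL, 43.2 and 66.1 CPM in uninjured Gli1+ cells, 331 and 331 CPM in stellate cells after BDL, and 196 and 330 CPM in uninjured stellate cells. Every stellate library lay above every Gli1+ library, and the Gli1+ groups overlapped. The longest overlap of a Des exon with an exon of Gm15179, on the opposite strand, is 220 bases. The other 8 genes of the list, those besides Des and Tagln, overlapped no exon of another annotated gene.

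**Figure D2:**
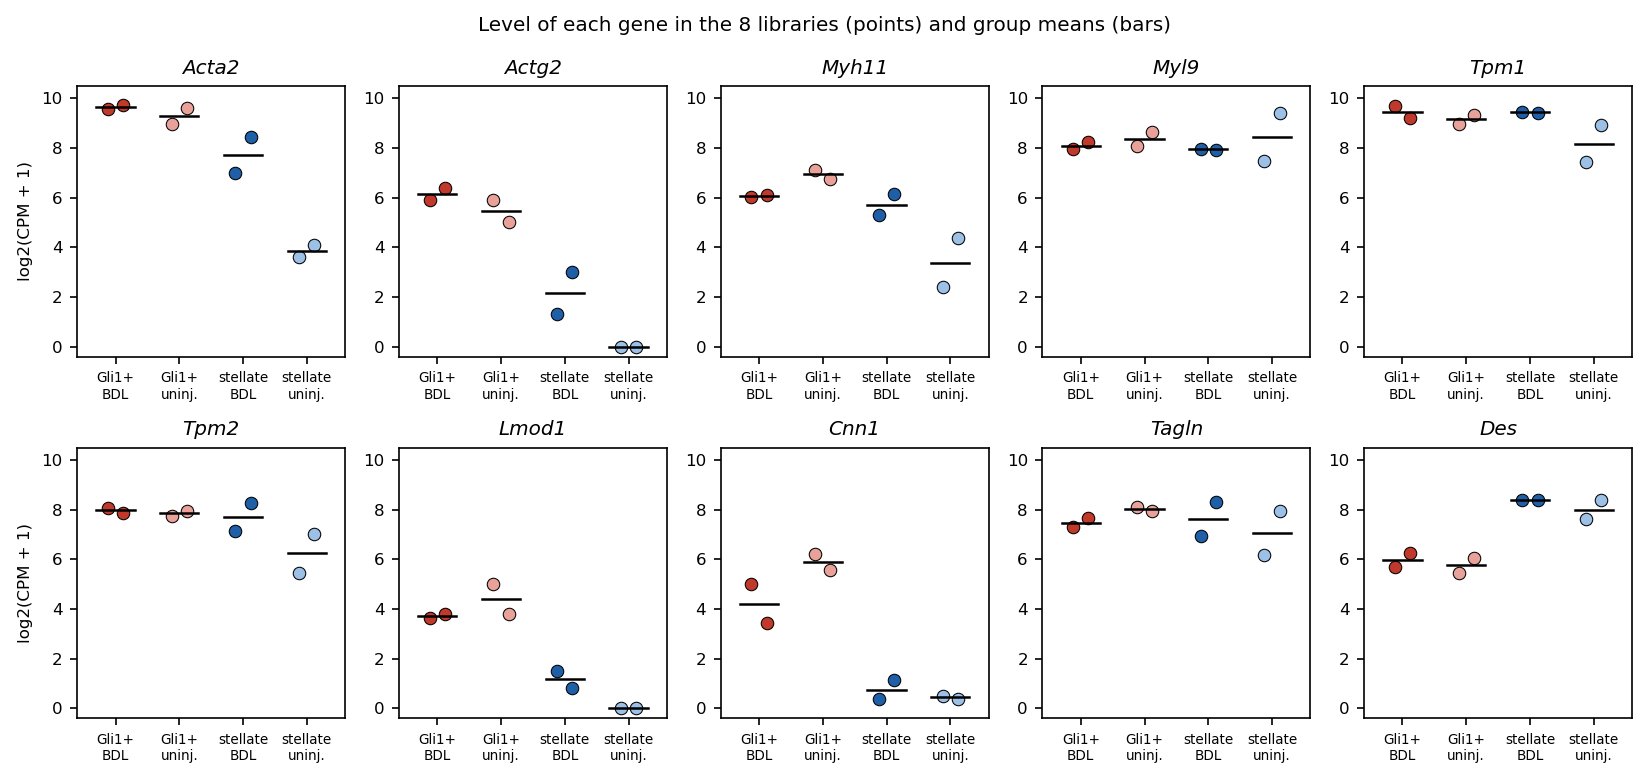
Level of each of the 10 genes as log2(CPM + 1) in the 8 libraries (points, 2 per group) with the group mean (bar). Acta2, Actg2, Lmod1 and Cnn1 separate the 4 Gli1+ libraries from the 4 stellate libraries, Des does so in the opposite direction, and Myl9 and Tagln overlap between groups.

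Set against each other per kilobase of exon, the members differed widely in level within a group. In uninjured Gli1+ cells Acta2 averaged 292 ± 87.0 and Myl9 289 ± 83.1 CPM per kb, followed by Tagln at 131 ± 11.97, Tpm1 at 88.6 ± 15.8 and Tpm2 at 79.1 ± 8.44 CPM per kb (SD, n = 2 each). Actg2, Cnn1, Myh11, Des and Lmod1 lay between 29.3 and 5.64 CPM per kb there. In uninjured stellate cells Myl9 was first at 371 ± 308, Tagln averaged 79.5 ± 61.5 and Des 70.0 ± 25.2 CPM per kb, and Acta2 averaged 6.20 ± 1.60 CPM per kb (SD, n = 2 each). Acta2 and Myl9 in uninjured Gli1+ cells, and Tagln and Des in uninjured stellate cells, differed by less than the spread between libraries. The rank of Tpm1 depends on the length used, since its exons span 6485 bases and its longest transcript 2890 bases; per kilobase of that transcript it averaged 199 CPM in uninjured Gli1+ cells.

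The list as a whole had overlapping summed levels in both Gli1+ groups. The 10 genes summed to 2476 and 2421 CPM in Gli1+ cells after BDL, 2114 and 2584 CPM in uninjured Gli1+ cells, 1724 and 2308 CPM in stellate cells after BDL, and 675 and 1905 CPM in uninjured stellate cells. Acta2 made up 30.7% and 34.7% of that sum in Gli1+ cells after BDL, 24.0% and 30.1% in uninjured Gli1+ cells, against 7.44% and 15.1% in stellate cells after BDL and 1.65% and 0.846% in uninjured stellate cells. Des made up 2.04% to 3.09% in Gli1+ libraries and 14.3% to 29.04% in stellate libraries.

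The first question was how the 2 populations differ in uninjured liver. Acta2, Actg2, Myh11, Lmod1 and Cnn1 were higher in Gli1+ than in stellate cells, Des was lower, and Myl9, Tpm1, Tpm2 and Tagln did not pass the test. Differences were fitted with limma on log2(CPM + 1) over 16446 genes and called at a Benjamini-Hochberg adjusted p under 0.05. Of all genes tested 11.1% were called, 8.06% higher and 3.02% lower in Gli1+ cells. Of the list, 5 of 10 were called higher and 1 of 10 lower. Cnn1 and Lmod1 entered the fit only through their Gli1+ libraries, so their presence among the called genes is partly fixed by the filter of at least 1 CPM in 2 libraries. The median log2 fold change of the 10 genes was 2.58, and that of all genes tested was 0.32 (0.14 after TMM scaling), so changes are to be read relative to a general shift.

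Acta2 differed by 5.45 ± 0.48 on the log2(CPM + 1) scale (SE; adjusted p = 0.000436), which is 47.1-fold in mean CPM. The difference of Actg2 was 5.47 ± 0.80 (adjusted p = 0.00381). With reads pooled by group and the uninjured stellate group set to a floor of 3 reads, Actg2 was at least 504-fold higher. This bound is for the pooled group and takes no account of the spread between Gli1+ libraries. Within the thick filament, Myh11 differed by 3.55 ± 0.63 (adjusted p = 0.00941), whereas Myl9 differed by -0.09 ± 0.56 (adjusted p = 0.967). Lmod1 differed by 4.42 ± 0.79 (adjusted p = 0.00955) and was at least 240-fold higher in pooled reads by the same floor, with the same limit. Cnn1 differed by 5.44 ± 0.84 (adjusted p = 0.00508). Des was lower by a log2 change of -2.23 ± 0.39 (adjusted p = 0.00813), and its mean CPM in Gli1+ cells was 0.208 of that in stellate cells. Tpm2, at 1.60 ± 0.54 (adjusted p = 0.103), Tpm1, at 0.99 ± 0.47 (adjusted p = 0.244), and Tagln, at 0.97 ± 0.61 (adjusted p = 0.391), were higher on average but not called.

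Which library was left out decided 4 of these verdicts. Without uninjured Gli1+ replicate 1, Des gave -1.93 (adjusted p = 0.0585) and Myh11 3.36 (adjusted p = 0.0759). Without uninjured stellate replicate 2, Tpm1 gave 1.73 (adjusted p = 0.0240) and Tpm2 2.39 (adjusted p = 0.0182), so that 7 of 10 were called higher. That leaves replicate 1, the library with the high macrophage sum, in which Acta2, Myl9, Tpm1, Tpm2, Tagln and Myh11 all had their lowest level of the series. Without replicate 1 itself, 5 of 10 were called higher and 1 lower, as with all libraries, and Myh11 gave 2.57 (adjusted p = 0.0122). Without a filter on low values Lmod1 was not called (adjusted p = 0.0613). Portal and adventitial fibroblast genes, led by Igfbp6, Dpt and Pi16, summed to 10173 and 6817 CPM in uninjured Gli1+ cells against 29.5 and 40.1 CPM in uninjured stellate cells. The part of these, the mesothelial, the cholangiocyte and the macrophage markers in the differences was not tested. In a fit of the 4 uninjured libraries alone, none of the 10 genes was called by limma. Of the 10, 6 had an unadjusted p under 0.05 in that fit, against 3020 of all 16446 genes. The methods edgeR, DESeq2 and limma-voom, each fitted to all libraries, called 5 higher and 1 lower.

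**Figure D3:**
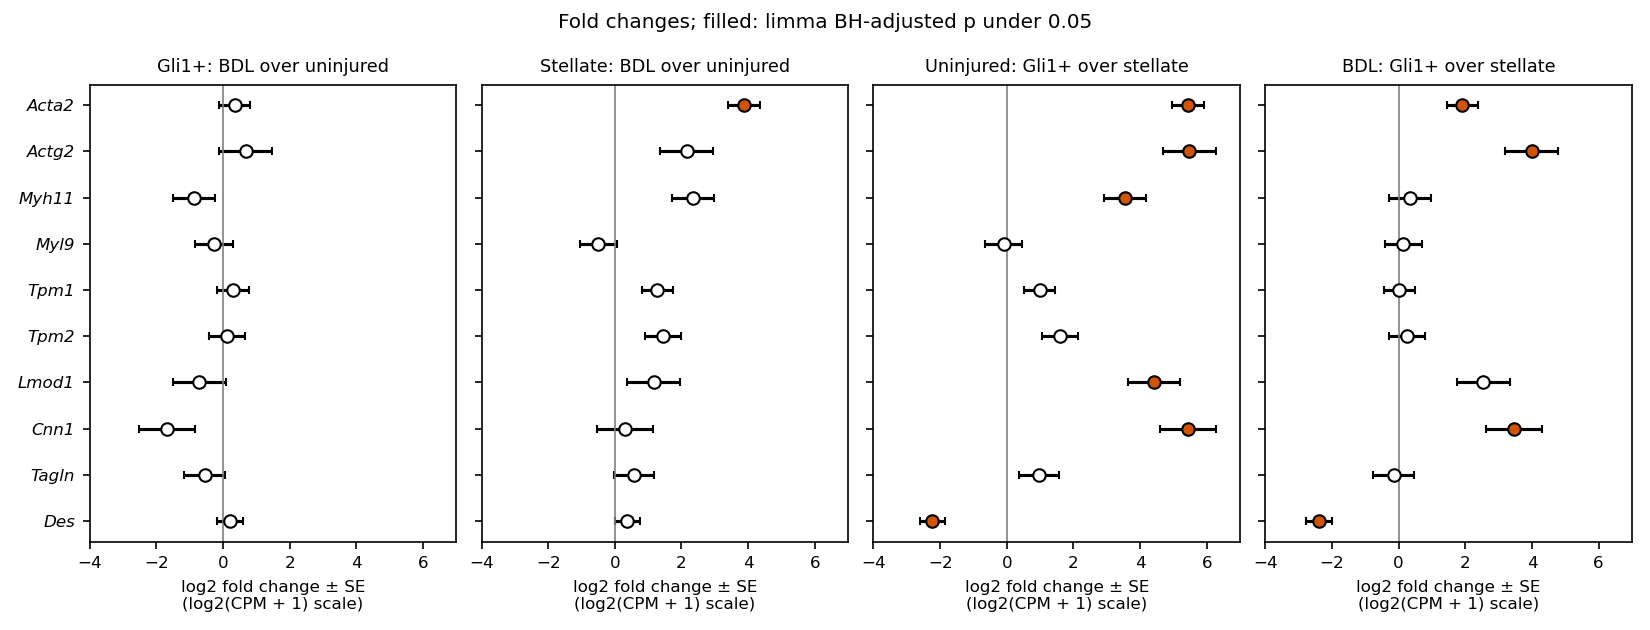
Log2 fold changes of the 10 genes with SE, on the log2(CPM + 1) scale, in 4 comparisons; filled points have a limma adjusted p under 0.05. In both population comparisons filled points lie to the right for Acta2, Actg2 and Cnn1 and to the left for Des. Myh11 and Lmod1 are filled, to the right, in uninjured liver only. Acta2 is the one filled point of the BDL responses.

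After BDL 4 of the 10 genes were called between the populations. Acta2, Actg2 and Cnn1 were higher in Gli1+ than in stellate cells, Des was lower, and Myh11, which had separated the uninjured populations, had overlapping libraries. Of all genes tested 6.8% were called, 4.44% higher and 2.36% lower, against 3 of 10 higher and 1 of 10 lower in the list. Cnn1 again entered the fit only through its Gli1+ libraries, so its presence among the 3 is partly fixed by the filter. An unadjusted p under 0.05 (limma) was found for 5 of the 10 genes and 3216 of all 16446. The median log2 fold change of the list was 0.30, and that of all genes was 0.23 (0.09 after TMM scaling).

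Actg2 differed by 4.0 ± 0.80 after BDL (limma, adjusted p = 0.0203), which is 16.9-fold in mean CPM. Cnn1 differed by 3.46 ± 0.84 (adjusted p = 0.0448) and Acta2 by 1.91 ± 0.48 (adjusted p = 0.0495), or 3.36-fold in mean CPM. Des was lower, at -2.40 ± 0.39 (adjusted p = 0.00865). Lmod1, at 2.53 ± 0.79, had separate libraries but was not called (adjusted p = 0.105). Myh11 gave 0.34 ± 0.63 (adjusted p = 0.862), and Tpm2, Myl9, Tpm1 and Tagln gave 0.26, 0.14, 0.02 and -0.15 with adjusted p-values of 0.877 to 0.991. The signs of Tpm1 and Myl9 turn with scaling, to -0.14 and -0.03 after TMM. The calls of Acta2 and Cnn1 lay close to the threshold. Under the 11 other settings Acta2 was called in 4 and Cnn1 in 3, with adjusted p-values of 0.0832 and 0.0502 after TMM scaling, whereas Des was called in all 11. Without either uninjured Gli1+ library the calls of Acta2 and Cnn1 ended, and 1 of 10 genes was called higher. Without Gli1+ BDL replicate 1, Gli1+ BDL replicate 2 or stellate BDL replicate 1, 0 of 10 were called higher by limma and 5 had an unadjusted p under 0.05. Without stellate BDL replicate 2, Acta2 alone was called higher. Des lost its call without Gli1+ BDL replicate 1 (adjusted p = 0.0938), stellate BDL replicate 1 (0.0927) or stellate BDL replicate 2 (0.0846).

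The second question was how each population changed 5 d after BDL. In stellate cells Acta2 rose, and it was the only one of the 10 genes to pass the test. Of all genes tested, 0.225% were called, all of them higher, against 1 of 10 of the list. Acta2 rose by 3.88 ± 0.48 (limma, adjusted p = 0.0252), or 17.5-fold in mean CPM. Both BDL libraries lay above both uninjured libraries for Actg2, Myh11, Tpm1, Tpm2, Lmod1 and Des as well, but none was called. The share of all genes with such a separation was not counted, so it is given as a description only. Myh11 gave 2.33 ± 0.63 (limma, adjusted p = 0.195) and Actg2 2.16 ± 0.80 (adjusted p = 0.317). In reads pooled by group, Actg2 was at least 44.3-fold and Lmod1 at least 16.8-fold higher against a floor of 3 reads over the uninjured group. These bounds take no account of the spread between BDL libraries, replicate 2 holding 9 reads of Lmod1. Tpm2 gave 1.45, Tpm1 1.27, Lmod1 1.17, Tagln 0.57, Des 0.38, Cnn1 0.30 and Myl9 -0.49, with adjusted p-values of 0.315 to 0.972. The median of the 10 genes was 1.22, or 1.36 with Actg2 and Lmod1 at their bounds, and that of all genes was 0.19 (0.11 after TMM scaling).

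The 2 stellate libraries of BDL differed from each other in these genes: Acta2 was 128 CPM in replicate 1 and 348 CPM in replicate 2, and Myh11, Actg2, Tpm2 and Tagln were likewise higher in replicate 2. The call of Acta2 was lost when any 1 of the 4 Gli1+ libraries or 2 stellate BDL libraries was left out, with adjusted p-values of 0.0546 to 0.272, and kept without either uninjured stellate library. It was lost in the unfiltered fit (adjusted p = 0.0909), with limma-voom (0.202) and in a fit of the stellate libraries alone (0.194), and kept with edgeR (0.0428) and DESeq2 (1.16e-09). Without uninjured stellate replicate 2, Myh11 (3.31, adjusted p = 0.0284) and Tpm1 (2.02, adjusted p = 0.0476) were called too. Summed levels of some markers of other cells were also higher in the stellate BDL libraries. Endothelial genes summed to 3113 and 2204 CPM after BDL and 611 and 137 CPM in uninjured stellate cells, hepatocyte genes to 1503 and 1347 CPM against 209 and 91.2 CPM, and cholangiocyte genes, led by Spp1, to 181 and 756 CPM against 6.91 and 3.75 CPM. All 12 endothelial and all 10 hepatocyte genes had a positive log2 fold change, but only 6 of the 10 cholangiocyte genes did. The median of the cholangiocyte genes was 0.21, near the 0.19 of all genes. Of these 10 genes, 2 reached 1 CPM in stellate BDL replicate 1 and 5 in replicate 2, so their sum rests on few genes. The pericyte list summed to 4630 and 5029 CPM after BDL and 5158 and 12617 CPM in uninjured stellate cells. Their part in the change of Acta2 was not tested.

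In Gli1+ cells none of the 10 genes was called after BDL by limma, edgeR, DESeq2 or limma-voom, and none had an unadjusted p under 0.05 in the limma fit. Over all genes, 0% were called by limma, with 1812 at an unadjusted p under 0.05, 0 by edgeR and 406 by DESeq2. Both BDL libraries lay below both uninjured libraries for Cnn1, Myh11, Lmod1 and Tagln. The share of all genes separated in this way was not counted here either. Cnn1 gave -1.68 ± 0.84 (limma, adjusted p = 0.538), Myh11 -0.88 ± 0.63 (adjusted p = 0.721), Lmod1 -0.71 ± 0.79 (adjusted p = 0.843) and Tagln -0.55 ± 0.61 (adjusted p = 0.844). Acta2 gave 0.35 ± 0.48 (adjusted p = 0.881), and Actg2, Tpm1, Des, Tpm2 and Myl9 lay between 0.68 and -0.27. The median of the 10 genes was -0.08, and that of all genes was 0.12. Portal and adventitial fibroblast genes summed to 3547 and 2894 CPM after BDL and 10173 and 6817 CPM in uninjured Gli1+ cells. Cholangiocyte genes summed to 15270 and 7380 CPM against 3921 and 3155 CPM, and hepatocyte genes to 2484 and 13478 CPM against 1164 and 316 CPM. The part of these cells in the lower levels of Cnn1, Myh11, Lmod1 and Tagln was not tested.

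The response to BDL was then compared between the populations as the Gli1+ response minus the stellate response. None of the 10 genes was called by limma, edgeR or limma-voom. By limma 2 of the 10 had an unadjusted p under 0.05, against 1230 of all 16446 genes. Of all genes 0.0122% were called, all lower. Acta2 gave -3.53 ± 0.67 (limma, adjusted p = 0.312) and Myh11 -3.21 ± 0.90 (adjusted p = 0.434), and the median of the list was -1.41, or -1.66 with Actg2 and Lmod1 at their bounds, against -0.12 for all genes. DESeq2 called 3 of 10 lower, namely Acta2 (adjusted p = 0.00049), Actg2 (0.00398) and Lmod1 (0.0148). The call of Acta2 in stellate cells without one in Gli1+ cells is therefore not shown by limma to be a difference between them. The comparisons above share libraries: the uninjured stellate group, for instance, is the baseline of the stellate response and of the uninjured comparison.

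Genes that control the switching of smooth muscle myosin were read next. In a list of 12 genes of myosin light chain phosphorylation, 0 were called higher and 2 lower in Gli1+ cells of uninjured liver, and the same counts were found after BDL. Of all genes tested, 8.06% were called higher and 3.02% lower in uninjured liver, and 4.44% higher and 2.36% lower after BDL. The counts of this and the following lists are to be read against these shares. Mylk encodes the kinase that phosphorylates the light chain. It had 94.9 and 242 CPM in Gli1+ cells after BDL, 185 and 128 CPM in uninjured Gli1+ cells, 516 and 599 CPM in stellate cells after BDL, and 565 and 605 CPM in uninjured stellate cells (limma, -1.92, adjusted p = 0.0258 in uninjured liver; -1.87, adjusted p = 0.0384 after BDL). Ppp1r14a, which encodes the myosin phosphatase inhibitor CPI-17, had 22.0 and 32.9 CPM in Gli1+ cells after BDL, 75.7 and 33.9 CPM in uninjured Gli1+ cells, 255 and 384 CPM in stellate cells after BDL, and 294 and 294 CPM in uninjured stellate cells (-2.51, adjusted p = 0.00902; -3.49, adjusted p = 0.00347). Every stellate library thus lay above every Gli1+ library for both genes, as for Des. The median of the 12 genes was 0.10 in uninjured liver and -0.06 after BDL. The number called lower in uninjured liver was 1 without any 1 uninjured library or stellate BDL library, and 1 gene was then called higher without uninjured stellate replicate 1. After BDL it was 0 when Gli1+ BDL replicate 1 or stellate BDL replicate 2 was left out, and 1 when either uninjured Gli1+ library or stellate BDL replicate 1 was.

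Other proteins of smooth muscle were called in both directions. Of 24 genes, 6 were called higher and 3 lower in uninjured Gli1+ cells, and 4 higher and 2 lower after BDL, with medians of 0.78 and 0.20. The shares of all genes tested were 8.06% and 3.02% in uninjured liver, and 4.44% and 2.36% after BDL. The 6 called higher, Hspb7, Pdlim3, Aoc3, Npnt, Ldb3 and Itga7, reached 1 CPM in at most 1 stellate library and passed the filter only through Gli1+ libraries, so their direction was fixed by it. Hspb7, a small heat shock protein of muscle, had 11.5 and 10.7 CPM in Gli1+ cells after BDL and 19.4 and 18.4 CPM in uninjured Gli1+ cells, and no read in stellate cells. Pdlim3, a Z-line protein that binds alpha actinin, had 8.06 and 23.8 CPM in Gli1+ cells after BDL and 63.8 and 59.0 CPM in uninjured Gli1+ cells, against at most 0.104 CPM in stellate libraries. Aoc3, a membrane amine oxidase of smooth muscle, and Npnt, an extracellular matrix ligand of integrins, were called higher in both comparisons as well, and Ldb3 and Itga7 in the uninjured one. Smtn, the smooth muscle protein smoothelin, was lower in both comparisons. It had 56.8 and 56.9 CPM in Gli1+ cells after BDL, 55.5 and 111 CPM in uninjured Gli1+ cells, 241 and 164 CPM in stellate cells after BDL, and 258 and 375 CPM in uninjured stellate cells (-1.79, adjusted p = 0.0357 after BDL; -1.97, adjusted p = 0.0183 in uninjured liver). Mustn1 was lower in both comparisons too, and Tinagl1 in the uninjured one. After BDL 0 genes of this list were called higher by limma when any 1 BDL library was left out, and 1 lower without Gli1+ BDL replicate 1 or either stellate BDL library. In uninjured liver 5 to 7 were called higher with 1 library left out, 1 lower without either uninjured Gli1+ library or uninjured stellate replicate 2, and 2 lower without either stellate BDL library or uninjured stellate replicate 1.

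Among the paralogs of the list that non-muscle cells use, Cnn2 and Cnn3, the non-muscle calponins, were lower in uninjured Gli1+ cells (limma, -1.71, adjusted p = 0.0150 and -1.72, adjusted p = 0.0183), opposite to Cnn1. Of 16 paralogs 12 were tested, with 2 called higher (Myh14, a non-muscle myosin heavy chain, and Tmod2, a cap of actin filament ends) and 2 lower in uninjured Gli1+ cells. Of all genes tested 8.06% were called higher and 3.02% lower there. After BDL Myh14 alone was called, higher, against 4.44% of all genes. Myh14 and Tmod2 reached 1 CPM only in Gli1+ libraries, so the filter fixed their direction. The calls of lower calponins fell to 0 without uninjured Gli1+ replicate 2 and to 1 without replicate 1 of uninjured Gli1+ cells or replicate 2 of uninjured stellate cells. After BDL 0 genes of this list were called higher by limma without Gli1+ BDL replicate 1 or either stellate BDL library. Actb had 1928 and 2412 CPM in Gli1+ cells after BDL, 8039 and 7711 CPM in uninjured Gli1+ cells, 2439 and 2908 CPM in stellate cells after BDL, and 8526 and 6878 CPM in uninjured stellate cells. Its BDL libraries lay below its uninjured libraries in both populations, by -1.87 in Gli1+ cells (adjusted p = 0.0852) and -1.52 in stellate cells (adjusted p = 0.157), neither of them called. Actg1, the gamma cytoplasmic actin, had at most 1.81 CPM in any library. Actg1 and Actb are 88.6% identical in coding sequence with an identical run of 62 bases, and the effect of shared reads on either was not tested.

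Desmin was also set beside other genes of the intermediate filament network. Of 9 genes, 4 were called higher and 1 lower in uninjured Gli1+ cells, with a median of 2.11, against 8.06% and 3.02% of all genes tested. After BDL none was called by limma. There 5 had an unadjusted p under 0.05, against 3216 of all 16446 genes. Vim, which encodes vimentin, the filament protein of mesenchymal cells, had 1770 and 1747 CPM in Gli1+ cells after BDL, 2368 and 1988 CPM in uninjured Gli1+ cells, 711 and 1231 CPM in stellate cells after BDL, and 385 and 243 CPM in uninjured stellate cells. Vim was thus higher in uninjured Gli1+ cells (limma, 2.82, adjusted p = 0.00256), opposite to Des. Plec, the linker plectin, gave 3.89 (adjusted p = 0.00206), and Lmna and Bfsp1 were called higher too. Gfap, a filament protein known from astrocytes and from stellate cells, was lower in uninjured Gli1+ cells, as was Des. It had 0.0806 and 1.74 CPM in Gli1+ cells after BDL, 0.0888 and 1.83 CPM in uninjured Gli1+ cells, 17.2 and 15.3 CPM in stellate cells after BDL, and 29.1 and 29.7 CPM in uninjured stellate cells (limma, -4.12, adjusted p = 0.0180 in uninjured liver). Gfap was not called after BDL (adjusted p = 0.0556), and in stellate cells its BDL libraries lay below its uninjured libraries, whereas those of Des lay above. Leaving out 1 library gave 2 to 4 genes called higher in uninjured liver, 2 of them without uninjured Gli1+ replicate 2 or any 1 stellate library, and 0 called lower without uninjured Gli1+ replicate 1. Bfsp1 entered the fit only through Gli1+ libraries.

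Of 14 genes for Srf, the factor that binds promoters of smooth muscle genes, and its partners, 3 were called higher in uninjured Gli1+ cells (Klf5, Gata6 and Prrx1) and 1 after BDL (Klf5), and none lower. The shares of all genes called higher were 8.06% in uninjured liver and 4.44% after BDL. Klf5, and likewise Myl7 below, reached 1 CPM only in Gli1+ libraries, so the filter fixed their direction. The number of Srf list genes called higher in uninjured liver was 2 without either uninjured Gli1+ library, either stellate BDL library or uninjured stellate replicate 2. Srf itself gave 0.76 (limma, adjusted p = 0.426) in uninjured liver. Myocd, which encodes the smooth muscle coactivator myocardin, had 0.725 and 3.53 CPM in Gli1+ cells after BDL, 0.710 and 9.24 CPM in uninjured Gli1+ cells, and at most 0.117 CPM in stellate libraries, and was not called (adjusted p = 0.189 in uninjured liver). Of 12 striated muscle genes 7 were tested. Myl7, a light chain known from cardiac atria, was higher in uninjured Gli1+ cells (6.97, adjusted p = 0.000712) and after BDL (5.85, adjusted p = 0.00238), and Tnnt2, cardiac troponin T, was higher in uninjured liver (5.99, adjusted p = 0.00449). Of 20 focal adhesion genes 19 were tested. Flnc and Palld were higher and Actn4 and Pdlim1 lower in uninjured Gli1+ cells, against 8.06% and 3.02% of all genes. Actn4 was lower after BDL, against 2.36% of all genes. With 1 library left out, 1 to 3 focal adhesion genes were called higher in uninjured liver, 1 of them without any 1 Gli1+ library or stellate BDL library. After BDL the number lower was 0 without any 1 BDL library, and 2 or 3 without an uninjured one. None of the genes of these 7 lists was called by limma in the BDL response of either population, where 11 in Gli1+ cells and 17 in stellate cells had an unadjusted p under 0.05. Among all 16446 genes tested, 1812 in the Gli1+ response and 1968 in the stellate response had such a p. Over the other settings at most 1 gene of a list was called in a direction in Gli1+ cells and at most 3 in stellate cells.

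**Figure D4:**
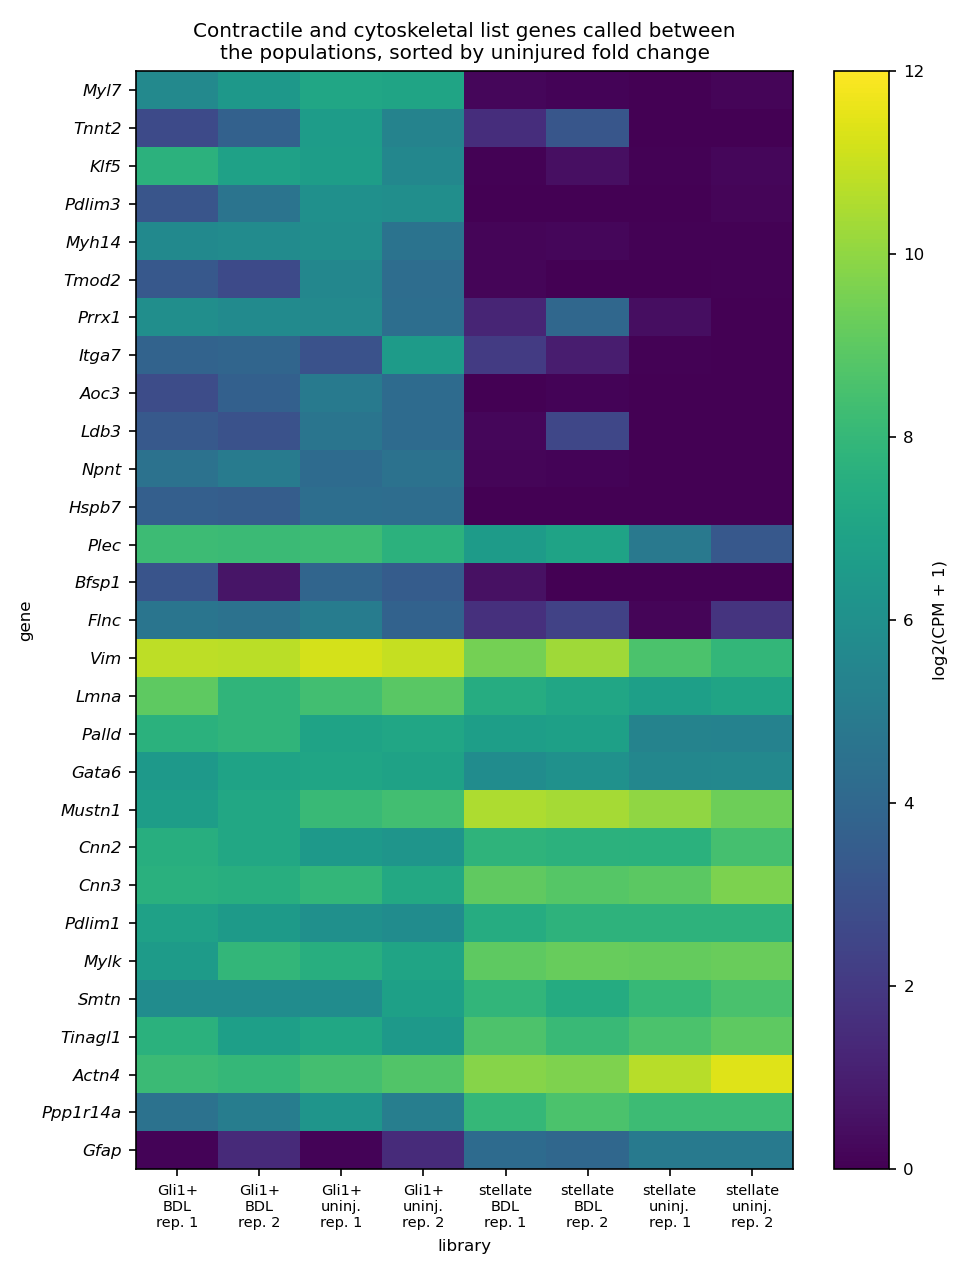
Level as log2(CPM + 1), by colour, of the 29 genes of the contractile and cytoskeletal lists that limma called between the populations in uninjured liver or after BDL, in 8 libraries, sorted by the uninjured log2 fold change with the highest at the top. Genes at the top, from Myl7 to Hspb7, are low in stellate libraries, and genes at the bottom, from Mustn1 to Gfap, are higher in stellate libraries.

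Markers of vascular smooth muscle and pericytes were read beside the contractile genes. The 12 genes of that list summed to 264 and 409 CPM in Gli1+ cells after BDL, 363 and 338 CPM in uninjured Gli1+ cells, 4630 and 5029 CPM in stellate cells after BDL, and 5158 and 12617 CPM in uninjured stellate cells, led by Rgs5, Abcc9 and Kcnj8. In each comparison of populations 6 of 12 were called lower in Gli1+ cells and none higher (limma), the 6 being Rgs5, Kcnj8, Abcc9, Rgs4, Heyl and Gja4. The shares of all genes called lower were 3.02% in uninjured liver and 2.36% after BDL. Of all 12, 3 had a positive log2 fold change in uninjured liver and 2 after BDL. Higd1b, of the same list, had no read in any stellate library. The part of pericytes in the level of Des and of the actins was not tested.

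Promoters were read from RefSeq on GRCm38.p6, from 250 bases before to 50 bases after the annotated start, for 7 of the 10 genes; Tagln, Myh11 and Actg2 had no entry and are named only. The CArG box, the motif to which Srf binds, is CC and GG with 6 bases of A or T between them, and both strands are covered because the motif is its own reverse complement. An exact box was found in Myl9 only, against 1.63% of 32851 promoters, and a box with at most 1 mismatch in Acta2, Lmod1, Tpm1 and Myl9, 4 of 7, against 21.1% of promoters. Des, Tpm2 and Cnn1 had neither in this window. The windows of Acta2 and Lmod1, which were higher in uninjured Gli1+ cells, and of Myl9, which was not called, are shown, 5′ to 3′ on the gene's strand with the box in capitals. They lie at chr19:34255438-34255467 and chr19:34255388-34255417 (minus strand, within an annotated exon of Acta2), chr1:135324614-135324643 and chr1:135324639-135324668 (plus strand) and chr2:156775293-156775322 (plus strand).
Acta2, upstream box: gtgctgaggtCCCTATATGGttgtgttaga
Acta2, downstream box: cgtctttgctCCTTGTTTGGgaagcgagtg
Lmod1, upstream box: gcccccttgtCTTTAAAAGGctaaactgct
Lmod1, downstream box: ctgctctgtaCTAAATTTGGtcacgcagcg
Myl9, exact box: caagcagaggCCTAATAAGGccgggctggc
The boxes of Acta2 and Lmod1 each carry 1 mismatch and the exact box of Myl9 carries 0. Myl9 has a further box with 1 mismatch, starting 99 bases before the annotated start, which is not printed. The MCAT motif CATTCC, searched on both strands without regard to the position of CArG boxes, was found in Acta2, Lmod1 and Tpm1, and in 14.7% of all promoters. These matches describe the letters of the window and show no binding.

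Likeness of pattern was described for Acta2, Myh11 and Des by Pearson's r of log2(CPM + 1) over the 8 libraries, among 10288 genes with a mean of at least 10 CPM. The libraries form 4 groups, so r mainly follows the group means, and no test is given. The 5 genes most like Acta2 were Cep162, Ppp1r14b, Trappc1, Efna1 and Uck2, with r of 0.987 to 0.990. Those most like Myh11 were Parp8, Smo, Malsu1, Meis2 and Ccdc77, with r of 0.972 to 0.983. For Des they were Cdh2, Serinc3, Hgf, Itga1 and Dmd, with r of 0.981 to 0.989. Cdh2, which encodes N-cadherin, had 5.40 and 10.6 CPM in Gli1+ cells after BDL, 3.46 and 6.96 CPM in uninjured Gli1+ cells, 137 and 154 CPM in stellate cells after BDL, and 108 and 251 CPM in uninjured stellate cells. Hgf is also on the stellate marker list used here.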

How the data were processed

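Libraries from sorted cells were prepared by SMART-Seq2, which amplifies whole cDNA by PCR, per the labels' protocols. The authors deposited CPM under a header that reads as normalized counts. The submitters' processing notes list FastQC, STAR 2.5.2b, featureCounts, DESeq2 and mm10 with no roles; annotation release, strand setting and the handling of shared reads were not stated in the sources used here. Each column sums to 1000000 and 100.0% of values were whole multiples of 1 read within 0.1 read, so reads were recovered; 3 reads are 0.156 to 0.266 CPM. GENCODE vM21 (GRCm38, the same assembly as mm10) held 30233 of the identifiers.

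limma-trend (limma 3.58.1, R 4.3.3) was fitted to log2(CPM + 1) with 4 group means over all 8 libraries, for the 16446 genes reaching 1 CPM in 2 libraries, with Benjamini-Hochberg adjustment at 0.05. Fold changes on this scale understate those of low genes. Alternatives were edgeR 4.0.16, DESeq2 1.42.0 and limma-voom on recovered reads, TMM and size factors, pseudocounts of 0.1 and 5, other filters, fewer libraries and a replicate block. On recovered reads edgeR called 1217 genes between the uninjured populations, 621 between the BDL populations, 62 in the stellate response and 0 in the Gli1+ response. The fit was also run on simulated counts with known changes and a single dispersion for all genes, as a check of the code. That run lacks the unequal replicates of these data and does not bear on the calls reported. PCR copies are not independent molecules, so floors cover counting error only.

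All 10 genes of the list, called members of the other lists (or else those of highest mean) and the 5 genes closest in pattern to Acta2, Myh11 and Des were named by rule. Srf, Myocd, Actg1, Higd1b, Actb, Gli1 and Lrat were named as references after their values were seen. An item withheld from the list of other smooth muscle proteins is not reported here. The genes and lists were chosen with earlier results of these data known.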

Additional observations from a re-analysis of the deposited data

Results flagged for a closer look

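For Myh11 and Lmod1, neither called by limma in the BDL response of either population, both Gli1+ BDL libraries lay below both uninjured Gli1+ libraries. Both stellate BDL libraries lay above both uninjured stellate libraries. How many of all genes show this pattern was not counted. For Lmod1 the Gli1+ groups were apart by little, with 12.8 CPM in the higher BDL library and 13.0 CPM in the lower uninjured library. The Gli1+ response minus the stellate response was -3.21 for Myh11 (limma, adjusted p = 0.434) and -1.88 for Lmod1 (adjusted p = 0.759), so neither difference passed the test over all genes. DESeq2 called that of Lmod1 (adjusted p = 0.0148) and not that of Myh11 (adjusted p = 0.133).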

How the results depend on the processing

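Of the counts of called genes, 157 values under other settings stayed within 1.5 times the reported count and 31 did not. The 157 include every count of 0 that stayed 0, such as all counts of the 10 genes in the Gli1+ response. They are therefore no measure of how stable the counts above 0 were. In the stellate response 1 of the 10 genes was called higher; this was 0 without a filter, with limma-voom and with the stellate libraries only, 3 with DESeq2, and 0 to 3 when 1 library was left out. Between the uninjured populations 5 were higher and 1 lower, against 0 and 0 with the uninjured libraries only, and 4 to 7 higher and 0 to 1 lower with 1 library left out. Between the BDL populations 3 were higher, against 1 with TMM, size factors, a pseudocount of 0.1, no filter, edgeR or the BDL libraries only, and 0 with limma-voom; leaving out 1 library gave 0 to 3 higher and 0 to 1 lower. For the difference of responses DESeq2 called 3 lower, against 0. Signs turned only for values that were not called. Between the BDL populations Myl9 gave -0.028 with TMM, -0.016 with edgeR and -0.023 with limma-voom, and Tpm1 gave -0.14 with TMM, -0.096 with size factors, -0.13 with edgeR, -0.086 with DESeq2 and -0.15 with limma-voom. With 1 library left out, the log2 fold changes in that comparison ran from -0.094 to 0.77 for Myh11, -0.21 to 0.25 for Tpm1, -0.29 to 0.81 for Tpm2 and -0.85 to 0.54 for Tagln. In the uninjured comparison Myl9 ran from -1.06 to 0.88. In the Gli1+ response Myl9 ran from -0.57 to 0.028, Tpm2 from -0.0011 to 0.23 and Des from -0.093 to 0.51. In the stellate response Myl9 ran from -1.46 to 0.48, Cnn1 from -0.084 to 0.68 and Tagln from -0.31 to 1.45. In the difference of responses Myl9 ran from -0.75 to 1.19 and Des from -0.54 to 0.20. The cause was not tested, beyond the fewer libraries of these fits. Where a library is left out, the lone library of its group is assumed to vary like the other groups.

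Over all genes, the stellate response had 37 calls, against 1006 with DESeq2, 97 with a pseudocount of 0.1, 62 with edgeR, 23 with TMM or size factors, 19 with a pseudocount of 5, 6 without a filter and 0 with limma-voom or the stellate libraries only. The Gli1+ response had 0, against 406 with DESeq2, 127 without a filter, 49 with a pseudocount of 5 and 3 at a filter of 5 CPM. The uninjured comparison had 1822, against 2996 with DESeq2, 810 without a filter and 0 with its own libraries only, and the BDL comparison 1118, against 621 with edgeR and 592 with limma-voom. The difference of responses had 2, against 389 with DESeq2, 11 with edgeR, 3 at a filter of 5 CPM and 0 with limma-voom, a pseudocount of 5 or no filter. Whether replicate numbers pair the libraries was not stated in the sources used here. Differences of replicate 1 from replicate 2 correlated at -0.112 to 0.112 over the 6 pairs of groups. The 2 populations of the same condition gave 0.079 in uninjured liver and 0.112 after BDL. These correlations cannot decide on pairing, because any other difference between libraries enters them too. With a replicate block, 18 genes were called in the stellate response, 1566 and 943 between the uninjured and the BDL populations, and 0 in the Gli1+ response and in the difference. Of the 10 genes, 2 instead of 3 were then called higher between the BDL populations, Cnn1 having an adjusted p of 0.0667 (limma), and the other counts were the same. With 2 libraries a group and 3 reads at 0.156 to 0.266 CPM, changes of Cnn1, Lmod1 and Actg2 within stellate cells rest on few reads.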
